A study of Homo sapiens with 4 samples.

Results

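The genes described here are those with a symbol made of ZNF and a number, the largest set of zinc finger genes in human nomenclature. They were taken from peak lists of N6-methyladenosine (m6A), an internal mark of messenger RNA, in cisplatin-sensitive A549 and cisplatin-resistant A549/DDP cells. Membership was set by the symbol, among genes with a peak in either list. Of 7957 genes with a peak in either list, 220 were members, 201 of them in the A549/DDP list of 7031 genes and 160 in the A549 list of 6453.

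Both lines come from a human lung adenocarcinoma, and the labels name A549/DDP as the cisplatin-resistant form of A549. From each line 1 library of RNA fragments bound by an m6A antibody and 1 input library were made, 4 libraries in all, and both lines were grown in the same medium. How resistance was raised, whether A549/DDP is a single clone and whether the drug was present at harvest were not stated in the sources used here. The deposited data are 1 peak list per line without read counts, so depth and expression are unknown and the identity of the cells could not be checked against markers. With 1 library per group there is no replicate check and no test between the lines, and every comparison describes these libraries. A transcript too scarce to give a peak and a transcript that has lost the mark cannot be told apart.

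Zinc finger proteins of this kind carry arrays of small zinc-binding folds that contact DNA base by base, and in most of them the whole array is encoded by a single long last coding exon. Many also carry a KRAB domain, which recruits the corepressor TRIM28 and the histone methyltransferase SETDB1 to silence transposable elements and genes, and large tandem clusters of such genes lie on chromosome 19. Others carry a SCAN domain, which mediates pairing between such proteins, or act in transcription, splicing, translation or mitosis without either domain. In mRNA generally, m6A is laid down during transcription by the METTL3-METTL14 complex, is frequent in long internal exons and around stop codons, and is read by YTH-domain proteins that affect the decay and translation of the transcript.

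Both lists held a peak for 141 of the 220 ZNF genes (64.1%, exact binomial 95% interval 57.4 to 70.4), against 69.5% of all genes with a peak. In A549/DDP alone it was listed for 60 genes (27.3%, 21.5 to 33.7), against a background of 18.9%. In A549 alone it was listed for 19 (8.64%, 5.28 to 13.2), against 11.6%. These intervals cover counting error between genes only. The members' peaks numbered 953 in A549/DDP and 694 in A549, a ratio of 1.37, against 1.17 for all other genes, and after overlapping peaks of a gene were merged into regions there were 387 and 300, a ratio of 1.29 against 1.16. The direction turned with the same number of strongest peaks by the authors' p in each list (13659): 53 ZNF genes were then listed in both lines, 15 in A549/DDP only and 19 in A549 only, and the members' peaks numbered 207 and 236. All genes turned the same way at that setting, with 16.3% in A549/DDP only and 18.9% in A549 only, against 17.2% and 21.8% of ZNF genes. Of those 15 genes, 10 had a weaker peak in the full A549 list, and of those 19 genes, 18 had one in the full A549/DDP list.

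**Figure D1:**
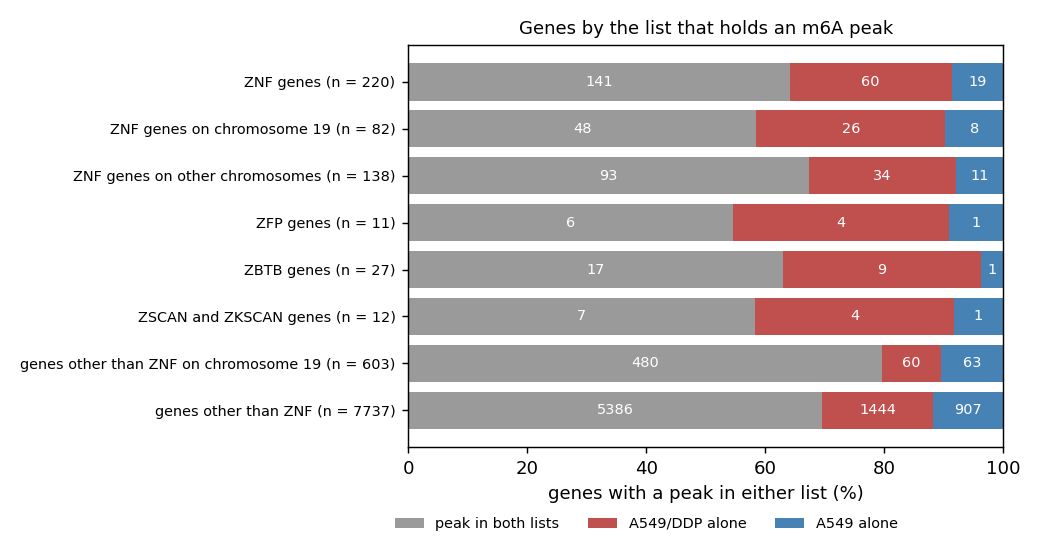
Share of genes with a peak in either list (x axis, %) that were listed in A549/DDP only (red), in A549 only (blue) or in both (grey), with the number of genes written in each bar. ZNF genes of chromosome 19 had the larger A549/DDP-alone share of the ZNF bars (26 of 82 genes), while other genes of that chromosome had 60 of 603.

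ZNF peaks combined high fold with weak significance. Fold is the enrichment of the pull-down at a peak as a linear ratio, and fold and p are the authors' own values, used here within a list. The median fold of ZNF peaks was 5.16 in A549/DDP (quartiles 3.78 and 9.38) against 3.75 for the peaks of other genes, and 6.00 in A549 (3.80 and 10.7) against 3.67. Their median p was 2.51e-05 in A549/DDP against 3.98e-08, and 2.00e-05 in A549 against 7.41e-08. Only 31.3% of ZNF peaks in A549/DDP and 34.0% in A549 were stronger than their list's median p. Identical pairs of fold and p recurred at many positions: 33.7% of ZNF peaks in A549/DDP shared their pair with at least 9 other peaks of the list, against 15.5% for other genes, and 30.5% against 15.0% in A549. The pair with fold 12.9 and an authors' p of 0.00132 stood at 19 ZNF peaks in 10 genes of the A549/DDP list. How far such recurring values go with few reads could not be seen, since the lists hold no counts.

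Absence from the other list was more frequent among genes with weaker peaks, for ZNF genes and for other genes. The smallest p of a gene was taken over both lists, so a gene listed in both had more peaks to draw it from. Part of this gradient therefore follows from the rule itself. Among ZNF genes whose smallest p in either list was below 1e-08, 87 of 93 were listed in both lines, 5 in A549/DDP alone (5.38%, 1.77 to 12.1, against 5.47% of other genes) and 1 in A549 alone (1.08%, 0.0272 to 5.85, against 3.57%). Between 1e-08 and 1e-04, 28 of 78 were listed in A549/DDP alone (35.9%, 25.3 to 47.6, against 31.5%) and 6 in A549 alone (7.69%, 2.88 to 16.0, against 17.4%). At 1e-04 or above, 27 of 49 were listed in A549/DDP alone (55.1%, 40.2 to 69.3, against 48.6%) and 12 in A549 alone (24.5%, 13.3 to 38.9, against 33.7%). The A549/DDP-alone share of other genes lay inside the members' interval in each class. The A549-alone share of other genes lay inside it in the weakest and the strongest class and above it in the middle class. The weaker 2 classes held 22.3% and 35.5% of ZNF genes, against 16.0% and 24.2% of other genes.

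**Figure D2:**
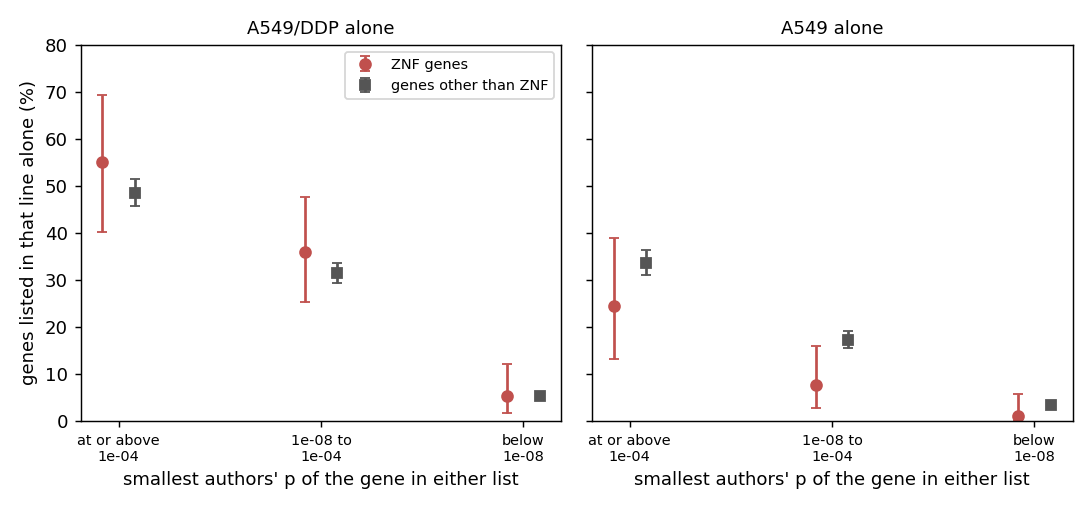
Share of genes listed in A549/DDP alone (left) or A549 alone (right) on the y axis (%), by the smallest authors' p of the gene in either list (x axis), for ZNF genes (circles) and other genes (squares); bars are exact binomial 95% intervals. Both kinds of gene went from about 50% (55.1% and 48.6%) to about 5% (5.38% and 5.47%) in the left panel. The smallest p was taken over both lists, which by itself favours a smaller p for genes listed in both.

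Among the 60 ZNF genes listed in A549/DDP alone, 6 had a peak stronger than the list's median p (10.0%, 3.76 to 20.5). Of other genes listed in A549/DDP alone, 20.9% had one. ZNF211, a KRAB gene of the distal chromosome 19 cluster, had the highest such fold, 35.2 in its 3′ UTR (chromosome 19, 58153909 to 58154147, plus strand, an authors' p of 1.26e-14). Its 23 peaks, listed over several isoforms, merged into 3 regions, and the other 2 regions lay in the coding sequence with highest folds of 18.8 (58152381 to 58152741) and 5.08 (58153081 to 58153254). The A549 list held no peak of ZNF211, so the difference covers coding sequence and 3′ UTR alike. ZNF45, another KRAB gene of chromosome 19, had a fold of 13.5 in the 3′ UTR (44417201 to 44417470, minus strand, an authors' p of 4.37e-08).

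The other 4 of these genes had low folds with small p. ZNF330, which encodes a nucleolar protein, had a single region in coding sequence and 3′ UTR (chromosome 4, 142154991 to 142155347) with a fold of 3.89 and the smallest p of the A549/DDP-alone members, 5.01e-24. ZNF462, a chromatin-associated factor with a role in development, had a fold of 5.12 in coding sequence and 3′ UTR (chromosome 9, 109773132 to 109773372, an authors' p of 2.00e-13). ZNF451, a SUMO ligase, had a fold of 4.69 in its 3′ UTR (chromosome 6, 57034730 to 57034999, an authors' p of 3.16e-13). ZNF664 had 3 regions, the one of highest fold in the 3′ UTR with 3.65 (chromosome 12, 124498751 to 124499049, an authors' p of 2.00e-13). In all 6 genes the strong peak of highest fold touched the 3′ UTR, and in ZNF211 the coding region with a fold of 18.8 was also stronger than the median p. None of the 6 had a peak in the full A549 list. At equal numbers of strongest peaks ZNF45 dropped out because its own peak was not among those of A549/DDP, and the other 5 remained.

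The other A549/DDP-alone members rested on weaker peaks. Over the 60 genes the highest fold per gene ranged from 3.35 (ZNF200) to 35.2 with a median of 10.2, the median of the smallest p was 7.76e-05, and 45 genes had a single region. The peak of highest fold lay in coding sequence alone in 29 genes, in the 3′ UTR alone in 22, in coding sequence and 3′ UTR in 6, in 5′ UTR and coding sequence in 2 and in the 5′ UTR alone in 1. These labels join the transcripts of a gene, so a peak with a pair of labels need not span the start or stop codon of any 1 transcript. That 1 gene was ZNF706, which encodes a very small zinc finger protein (fold 17.6 and an authors' p of 7.76e-05). In 27 of the 60 genes every peak carried a pair of fold and p found at 10 or more positions. Fold 18.8 with an authors' p of 3.80e-05, for instance, was the value of ZNF30, ZNF367, ZNF575 and ZNF696 alike, 4 genes named after their values were seen.

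Among the 19 genes listed in A549 alone, 1 had a peak stronger than the median p (5.26%, 0.133 to 26.0), against 22.4% of other genes of that class. ZNF3 had a 3′ UTR peak with a fold of 6.01 and an authors' p of 7.94e-14 (chromosome 7, 99667597 to 99667807, minus strand), and it was the 1 member of A549 alone at equal numbers of strongest peaks that had no weaker A549/DDP peak. The highest fold per gene over the 19 ranged from 2.62 (ZNF780A) to 14.9 (ZNF329), with a median of 5.58. The median of the smallest p was 1.82e-04, and 14 genes had a single region. Here the peak of highest fold lay in the 3′ UTR in 9 genes, in coding sequence in 7 and in both in 3, so that no member of this class had it in the 5′ UTR.

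Members with a peak in both lines were stronger: 86 of the 141 had a peak stronger than the median p in A549/DDP and 71 in A549. In either list it was 93 (66.0%, 57.5 to 73.7), against 81.4% of other genes with peaks in both. Of the 141, 64 had a peak stronger than the median p in each list, and in 51 of these (79.7%) the peaks of highest fold in the lists overlapped on the same strand. In ZNF668, counted as not overlapping and named after its values were seen, they lay at the same place on opposite strands. The order of those folds was alike to a moderate degree, with Spearman's rho of 0.53 across the 64 genes, which are not independent replicates. Neither the 79.7% nor the rho was set beside other genes, so neither is shown to be particular to ZNF genes. ZNF768, a transcription factor gene, had the highest such fold of all members in A549/DDP, 54.0 at a peak in 5′ UTR and coding sequence (chromosome 16, 30537162 to 30537910, minus strand), and 14.6 at the same place in A549 (30536688 to 30537910). Its second region, in coding sequence and 3′ UTR, had the smallest p of any ZNF peak in A549/DDP, 1.00e-142, with a fold of 15.4 there and 6.81 in A549.

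ZNF703 and ZNF503 encode the paired members of the NET family of transcriptional corepressors, and both carried strong peaks in each line. ZNF703, amplified in some breast cancers, had a fold of 44.0 in A549/DDP in coding sequence and 3′ UTR (chromosome 8, 37555774 to 37556491) and of 30.7 in A549 (37555744 to 37556432), with a further coding region at folds of 10.1 and 14.5. ZNF503 had coding peaks with folds of 28.7 (chromosome 10, 77159357 to 77159865, minus strand) and 16.5 (77159470 to 77159829). ZNF219, a Krüppel-like transcription factor gene, had folds of 43.4 in A549/DDP at a peak in 5′ UTR and coding sequence (chromosome 14, 21561301 to 21566799, minus strand) and 31.4 in the 5′ UTR in A549 (21566501 to 21566739). The A549 peak of ZNF219 lay within the span of the A549/DDP peak and shared exonic bases with it.

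The remaining genes of best joint rank were ZNF787, ZNF865, ZNF620, ZNF628, ZNF579 and ZNF282. ZNF787 had its peak in coding sequence and 3′ UTR at the same position in both lists (chromosome 19, 56598732 to 56599859, 1128 bases, minus strand), with a fold of 18.8 in A549/DDP and 29.7 in A549. ZNF579 likewise had 1 peak of 1662 bases at identical ends (chromosome 19, 56088899 to 56090560, minus strand), with folds of 15.2 and 14.2. Over all members, 31 peaks had the same position and exon blocks in both lists. ZNF620 had overlapping 3′ UTR peaks with folds of 30.5 and 26.4 (chromosome 3, from 40558612 to 40558881 and, for A549, from 40558672 to 40559120).

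In ZNF865, ZNF628 and ZNF282 the peaks of highest fold among those stronger than the median p sat at different sites in the lists. ZNF865 had 17.6 in coding sequence and 3′ UTR in A549/DDP (chromosome 19, 56128097 to 56128635) and 28.1 in coding sequence in A549 (56127111 to 56127589). ZNF628 had 34.0 in coding sequence in A549/DDP (chromosome 19, 55992992 to 55993707) and 18.2 in coding sequence and 3′ UTR in A549 (55995168 to 55995854). ZNF282, which encodes a repressor that binds the long terminal repeat of a human retrovirus, had 11.5 in coding sequence (chromosome 7, 148920928 to 148921315) and 15.1 in coding sequence and 3′ UTR (148921553 to 148922178). At the coding sites of ZNF628 and ZNF282 the A549 list also held an overlapping peak weaker than the median p, with folds of 19.8 and 20.7, the highest A549 folds of these genes. Without the limit on p their peaks of highest fold therefore overlapped, and those of ZNF865 did not.

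**Figure D3:**
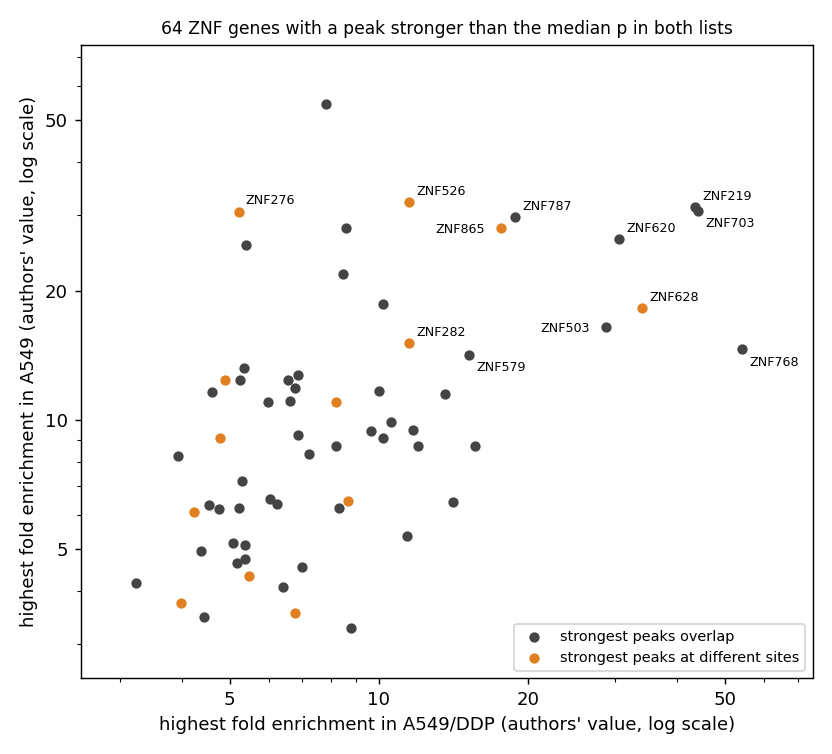
Highest fold of a gene at a peak stronger than the list's median p, in A549/DDP (x axis) and in A549 (y axis), both on log scales, for the 64 ZNF genes with such a peak in both lists; each point is 1 gene. Dark points (51 genes) have overlapping strongest peaks and orange points do not overlap on the same strand, as in ZNF628, ZNF865 and ZNF276.

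The site pattern within the 141 shared genes varied widely. All regions overlapped between the lists in 49 genes (34.8%, against 53.9% of other genes with peaks in both). Further regions were found in A549/DDP in 45 (31.9% against 22.4%), in A549 in 28 (19.9% against 13.0%) and in each line in 9 (6.38% against 6.31%). In 10 genes (7.09% against 4.40%) no region overlapped, so that both lists named the gene for different stretches of it. In all, 96 of the 308 A549/DDP regions of these genes and 65 of the 276 A549 regions had no counterpart. A gene with more regions has more that can lack a counterpart. A single region in each list was held by 35 of the 141 members, against 2047 of 5386 other genes. The shares of each pattern were not adjusted for this. ZNF207, which encodes a spindle and kinetochore protein, was 1 of the 10 genes without an overlapping region. Its A549/DDP regions lay over the 5′ UTR and adjoining coding sequence (fold 6.80) and in the 3′ UTR (fold 2.53). Its A549 region lay elsewhere in the 3′ UTR (fold 13.2).

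ZNF469, a gene whose loss causes a brittle cornea disorder, showed the widest gap in the number of regions. It had 11 regions in A549/DDP and 2 in A549. In A549/DDP, 10 of them lay in the coding sequence alone, between 88494148 and 88505159 on chromosome 16, with highest folds from 3.85 to 18.8. The 2 A549 regions lay at the 3′ end of this stretch (88505029 to 88505089, fold 11.6, and 88505688 to 88505848, fold 14.0) and both overlapped A549/DDP regions. None of its peaks in either list was stronger than the median p: the smallest were 1.20e-06 in A549/DDP and 3.16e-04 in A549, so this gap rests on weak peaks.

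The other genes with most regions were ZNF609, ZNF646, ZNF276 and ZNF629. ZNF609, the host gene of a well-known circular RNA, had 8 regions in A549/DDP and 4 in A549, the strongest over 5′ UTR and coding exons with folds of 10.0 and 11.7 (chromosome 15, 64753001 to 64792413 and 64753031 to 64792443). Its 3 further A549/DDP regions lay in coding sequence with folds from 2.68 to 3.03. ZNF629 had 7 regions against 4, and the strongest in A549/DDP, a coding peak with a fold of 8.65 and an authors' p of 3.98e-16 (chromosome 16, 30793521 to 30793880, minus strand), had no counterpart in A549. ZNF646 had 6 regions in each list, all in coding sequence, of which 3 in A549/DDP and 4 in A549 overlapped the other list. ZNF276 had 6 and 5 regions, with a 3′ UTR peak of fold 30.6 in A549 (chromosome 16, 89806711 to 89807311) where A549/DDP had 22.3 at a p of 1.26e-06. In ZNF276, as in ZNF219 and ZNF768, some peaks shared positions with peaks of another gene on the same or the opposite strand, and the assignment of those is uncertain. Same-strand sharing was found for 9 of the 953 A549/DDP peaks and 6 of the 694 A549 peaks of ZNF genes.

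**Figure D4:**
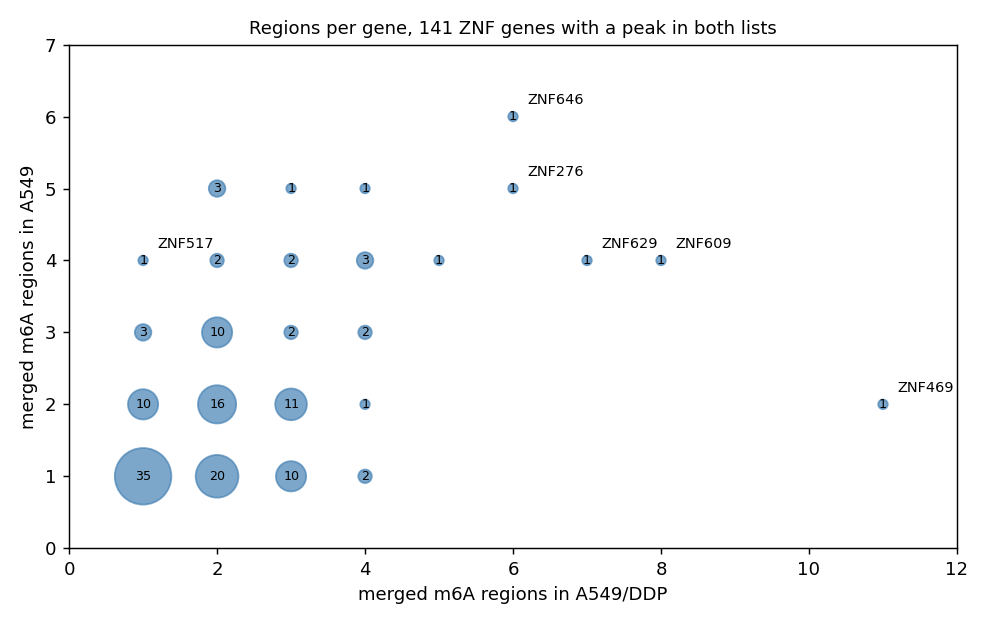
Number of merged regions per gene in A549/DDP (x axis) and A549 (y axis) for the 141 ZNF genes with a peak in both lists; each circle is a pair of values, and the number in it counts the genes. In 35 genes there was 1 region in each list, and ZNF469 stands apart with 11 and 2.

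ZNF peaks lay in coding sequence more often, and in the 5′ UTR less often, than the peaks of other genes in the same list. Coding sequence alone held 44.4% of ZNF peaks in A549/DDP (41.2 to 47.6), against 36.5% for other genes, and 41.2% in A549 (37.5 to 45.0) against 36.2%. A 5′ UTR was touched by 7.66% in A549/DDP (6.05 to 9.54) against 13.8%, and by 5.33% in A549 (3.78 to 7.27) against 8.50%. The 3′ UTR was touched by 48.1% and 53.5%, against 50.5% and 56.0%. Merged regions gave the same order, with coding-only shares of 37.2% against 27.0% in A549/DDP and 35.3% against 26.2% in A549. The coding-only order did not hold for the A549 peaks of chromosome 19 members, at 33.9% (27.0 to 41.4) against 36.2%. Their merged regions gave 31.9% (22.7 to 42.3) against 26.2%. No test of these differences was made, and peaks of 1 gene are not independent.

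ZNF peaks were also mostly contained in a single exon block: 91.7% in A549/DDP against 66.2% for other genes, and 89.0% in A549 against 68.1%. Their median exonic length was 181 bases in each list, against 211 and 210. Among the 424 A549/DDP peaks of ZNF genes that overlapped no A549 peak, 52.8% lay in coding sequence alone and 8.25% touched a 5′ UTR. Among the corresponding peaks of other genes these shares were 45.7% and 17.9%. Of the 141 shared members, 11 had a 5′ UTR peak in both lists, 11 in A549/DDP alone and 3 in A549 alone. Those of A549/DDP alone were ZNF101, ZNF205, ZNF207, ZNF324, ZNF358, ZNF467, ZNF544, ZNF576, ZNF639, ZNF771 and ZNF787, and those of A549 alone were ZNF263, ZNF276 and ZNF579. As shares these were 7.80%, 7.80% and 2.13% of the members, against 14.6%, 10.9% and 2.02% of other genes with peaks in both lists.

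**Figure D5:**
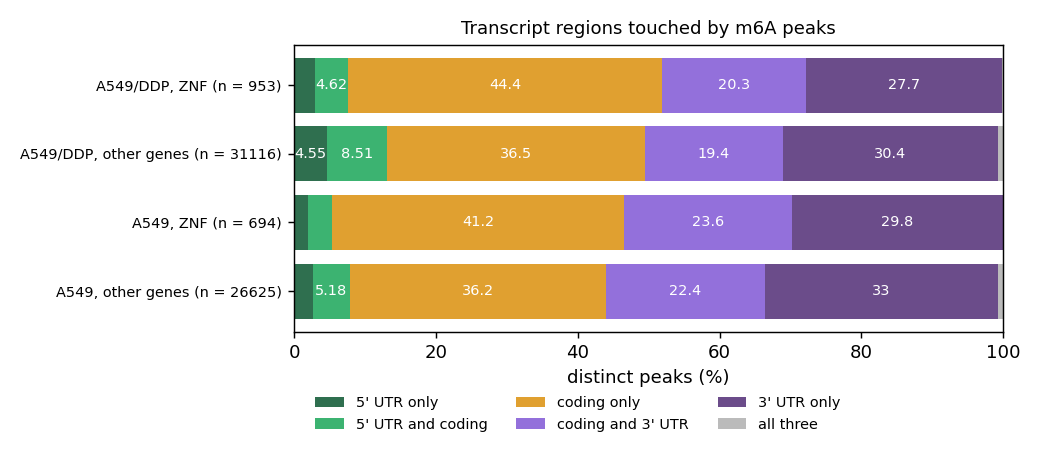
Share of distinct peaks (x axis, %) by the transcript regions they touch, for ZNF genes and other genes in each list. Coding-only peaks (orange) make up 44.4% and 41.2% of ZNF peaks against 36.5% and 36.2% of the peaks of other genes.

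Peak sharing was lower for ZNF genes in one direction. In A549/DDP, 529 of 953 ZNF peaks (55.5%, 52.3 to 58.7) shared 1 or more exonic bases with a peak of A549, against 67.5% for other genes. In A549, 532 of 694 (76.7%, 73.3 to 79.8) overlapped an A549/DDP peak, against 78.0%. By strength, A549/DDP peaks of ZNF genes were shared in 85.9% (81.0 to 90.0) of cases at p below 1e-08, 58.0% between 1e-08 and 1e-04 and 32.9% above, against 90.0%, 56.8% and 34.9% for other genes. In A549 the shares were 93.7%, 87.4% (82.4 to 91.4) and 53.5%, against 94.0%, 72.8% and 54.3%. The share of other genes lay below the members' interval in the A549 class between 1e-08 and 1e-04, and just above it in the A549/DDP class below 1e-08. In the other 4 classes it lay inside. Overlapping peaks of a gene were counted separately and are not independent, so these intervals are too narrow to settle which shares differ. Over merged regions of any strength, 54.8% (49.7 to 59.8) were shared in A549/DDP, against 64.2% for other genes. In A549 it was 70.3% (64.8 to 75.4) against 74.4%.

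Chromosome 19 held 82 of the 220 members, followed by chromosome 16 with 25 and chromosome 7 with 17. The A549/DDP-alone share was 31.7% on chromosome 19 (26 genes, 21.9 to 42.9) and 24.6% on the other chromosomes (34 of 138 genes, 17.7 to 32.7), and these intervals overlap. Other genes of chromosome 19 were listed in A549/DDP alone in 9.95% (60 of 603). The peaks of chromosome 19 members numbered 302 in A549/DDP and 177 in A549, a ratio of 1.71, which fell to 1.36 over merged regions (128 and 94), against 1.26 over the peaks and over the regions of members elsewhere. In A549 a 3′ UTR was touched by 61.6% of the peaks on chromosome 19 (54.0 to 68.8) and 50.7% elsewhere (46.3 to 55.1). Over merged regions the shares were 61.7% (51.1 to 71.5) and 58.7% (51.7 to 65.5), and both pairs of intervals overlap. In A549/DDP the shares of peaks were 49.3% and 47.5%. Coding sequence was touched in A549 by 54.2% of the members' peaks on chromosome 19 (46.6 to 61.7) and 73.1% elsewhere (69.1 to 76.9), against 64.4% for other genes. The merged regions gave 55.3% (44.7 to 65.6) and 68.4% (61.6 to 74.7), with overlapping intervals. In A549/DDP the coding shares of peaks were 63.2% and 72.2%, against 65.1% for other genes.

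Along chromosome 19 the members formed 9 blocks separated by more than 2 Mb. The distal block, from 52794400 to 58992597, held 39 members, 27 of them in both lines, 2 in A549 alone and 10 in A549/DDP alone. The block from 40582018 to 45579432 held 15, with 10 in both, 3 in A549/DDP alone and 2 in A549 alone. In the block from 35175588 to 38188080, of 7 members 5 were listed in A549/DDP alone (ZNF302, ZNF181, ZNF30, ZNF260 and ZNF420), 1 in A549 alone (ZNF607) and 1 in both (ZNF146). These 7 genes are too few to compare with the other blocks. Of the protein-coding ZNF genes in the RefSeq table (GRCh38.p14), 82 of 250 on chromosome 19 had a peak in either list (32.8%, 27.0 to 39.0) and 137 of 267 elsewhere (51.3%, 45.1 to 57.4).

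By role, genes for transcription and chromatin factors had a peak for 27 of 35 listed genes: 21 in both lines, 5 in A549/DDP alone and 1 in A549 alone. Beside ZNF703, ZNF219 and ZNF503, those of A549/DDP alone were ZNF462, ZNF451, ZNF318, ZNF512 and ZNF644, and that of A549 alone was ZNF76. Of all protein-coding ZNF genes, 42.4% had a peak. Among ZNF genes with a peak, 64.1% were in both lists, 27.3% in A549/DDP alone and 8.64% in A549 alone. All genes with a peak had 69.5%, 18.9% and 11.6%. The role lists were not tested against these shares. For genes of RNA, cytoplasmic or spindle roles the numbers were 13 of 16, with 10 in both lines, ZNF330 and ZNF706 in A549/DDP alone and ZNF473 in A549 alone. ZNF768, called a transcription factor gene above, was placed in this list and is among the 10. Of the 3 symbols without a peak, 2 are older names, and 1 of them, ZNF265, had a peak in A549/DDP alone as ZRANB2. Among the listed genes ZNF593, a ribosome biogenesis factor, had peaks in coding sequence and 3′ UTR with folds of 14.1 in A549/DDP (chromosome 1, 26497145 to 26497474) and 6.45 in A549 (26497116 to 26497474). ZNF106, an RNA-binding protein gene, had a strong coding peak in A549/DDP (fold 11.1, chromosome 15, 42740416 to 42740744, minus strand), and its A549 peaks were all weaker than the median p. Its 2 A549/DDP regions nevertheless overlapped A549 regions, of which there were 3. Without the limit on p its highest folds lay in the 3′ UTR, 18.8 in A549/DDP and 23.1 in A549. ZNF598, the ubiquitin ligase that senses collided ribosomes and a gene named after its values were seen, had 2 regions in A549/DDP and 5 in A549.

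SCAN-domain genes had a peak for 12 of 23 listed symbols, all 12 in both lines, where 64.1% of all members stood. Genes with a ZSCAN or ZKSCAN symbol did not share this: 7 of the 12 with a peak were in both lists (58.3%, 27.7 to 84.8). Of the 11 without a peak, 5 are older names, and 3 of these had a peak under the current symbol: ZSCAN25 and ZSCAN9 in both lines and ZKSCAN8 in A549/DDP alone. ZNF394, which encodes a repressor with a KRAB and a SCAN domain, had a fold of 46.3 in coding sequence and 3′ UTR in A549 (chromosome 7, 99090863 to 99091281, minus strand). In A549/DDP the peak at that place had a fold of 4.93 and was weaker than the median p. ZNF174 had folds of 5.40 in A549/DDP and 25.6 in A549 at overlapping peaks in coding sequence and 3′ UTR (chromosome 16, 3458584 to 3458943 and 3458657 to 3459340), and ZNF500 had 5.25 and 12.4. These folds come from separate lists and do not show that a transcript was more methylated in one line.

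Of the KRAB genes with reported binding to transposable elements, 4 of 17 had a peak, where 42.4% of all protein-coding ZNF genes had one (219 of 517), 3 in both lines (ZNF248, ZNF445 and ZNF587) and ZNF430 in A549 alone. ZNF248 had overlapping 3′ UTR peaks with folds of 6.23 in A549/DDP (chromosome 10, 38117902 to 38118291, minus strand) and 6.37 in A549 (38117962 to 38118231). Of the genes that carry out KRAB-directed silencing, which are not ZNF genes, 15 of 18 had a peak, 14 in both lines and ATF7IP, a partner of SETDB1, in A549/DDP alone. The 15 of 18 was not set beside the share of all annotated genes with a peak. The 16 peaks of ATF7IP merged into 1 region and were all weaker than the median p, with a smallest authors' p of 2.09e-04. Of genes other than ZNF with a smallest p of 1e-04 or above, 48.6% were listed in A549/DDP alone. Of all genes with a peak, 69.5% had one in both lists and 18.9% in A549/DDP alone. CHD3, a subunit of the NuRD remodelling complex, had 7 regions in each list with highest folds of 18.3 and 35.5. MORC2, an ATPase that works with the HUSH silencing complex, had 23.5 and 3.66 at peaks stronger than the median p, beside a weaker A549 peak with a fold of 17.3, and SETDB1 had coding peaks with 11.2 and 9.68. The corepressor TRIM28 itself had folds of 6.65 in A549/DDP over 5′ UTR and coding sequence and 2.14 in the 3′ UTR in A549. These peaks lay at different sites, so the folds do not compare a site between the lines. The smallest authors' p of TRIM28 in A549/DDP, 1.00e-138, belonged to another of its peaks.

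The smaller zinc finger families had too few genes for a narrow estimate. A peak in A549/DDP alone was listed for 4 of 11 ZFP genes (36.4%, 10.9 to 69.2), 9 of 27 ZBTB genes (33.3%, 16.5 to 54.0) and 4 of 12 ZSCAN and ZKSCAN genes (33.3%, 9.92 to 65.1). A peak in A549 alone was listed for 1 gene of each. The 3 intervals of the A549/DDP-alone share all included the 27.3% of ZNF genes, and that of the ZFP and that of the ZSCAN and ZKSCAN genes spanned over 50 percentage points.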

How the data were processed

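Immunoprecipitated and input RNA of each line were sequenced, and a stranded mRNA kit was used, per the labels' protocols. HISAT2 and the build hg19 are named in the submitters' processing notes. Peak caller, threshold and the handling of reads that align to several paralogues were not stated in the sources used here, so members with near-identical copies are uncertain. A list was assumed to come from the pull-down and the input of its line. The fold enrichment is a linear ratio deposited by the authors for each peak. The p-value is likewise the authors' deposited value, with no statement on adjustment.

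Rows of 1 position, strand and block structure were joined into distinct peaks (Python 3.11.15, scipy 1.17.1), and overlapping peaks of a gene and list were merged into regions. A peak touched a transcript region if any of its transcripts was listed with it. Positions count from 1 on hg19. Of the 220 symbols, 219 are current protein-coding RefSeq symbols and 1 (ZNF720) is an older one. The overlap code was tested on simulated intervals. Intervals are exact (Clopper-Pearson).

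Members, gene lists and alternatives were chosen with earlier results of these data known. Genes were named as the 10 of largest fold among peaks with a p below the median of the list in each class, or in both by worse rank, the 5 with most regions, and up to 3 per role list and class. Further genes were chosen after their values were seen. The planned division by KRAB box and number of fingers was not run, because protein sequences were not used here.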

Additional observations from a re-analysis of the deposited data

How the results depend on the processing

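Alternative settings were tried for 13 summary values, and 58 of 93 alternative values stayed within the 95% interval of the reported share or median or, for numbers of genes, within 1.5 times. A minimum fold of 5 raises the median fold by the rule itself. The cause of the other shifts that follow was not tested. At a fold of at least 5, shared peaks were 42.4% in A549/DDP and 51.8% in A549, and the median fold 8.99 and 9.29. Of the 190 members left, 99 were listed in both lines (52.1%, against 48.9% of all genes at that setting). In A549/DDP alone there were 64 (33.7% against 31.0%) and in A549 alone 27 (14.2% against 20.2%). These numbers of genes stayed within 1.5 times. At p of at most 1e-05, 82 of 140 members were listed in both lines (58.6%, against 66.2% of all genes at that setting). In A549 alone there were 11 (7.86% against 12.1%). In A549/DDP alone there were 47, within 1.5 times the main number (33.6% against 21.8%). Coding sequence was then touched by 72.6% in A549/DDP, the 3′ UTR by 59.2% in A549/DDP and 65.0% in A549. The median fold was 5.67 and 6.61, and 80.4% of A549 peaks were shared. With equal numbers of strongest peaks, 15 members were listed in A549/DDP alone and 53 in both. Shared peaks were 68.6% in A549/DDP and 60.2% in A549. The 5′ UTR was touched by 4.83% and 3.39%, the 3′ UTR by 70.5% and 68.2%, and coding sequence by 72.0% in A549. At this setting and at the limit on p, the region shares were not set beside those of other genes. The median fold was 6.58 and 6.99. Over merged regions the 3′ UTR was touched by 55.8% and 59.7%, coding sequence by 64.3% in A549, and 70.3% of A549 regions were shared. Without chromosome 19, which removes 82 members, 93 were listed in both, 34 in A549/DDP alone and 11 in A549 alone. Shared A549/DDP peaks were then 59.8%, their median fold 4.74, and coding sequence was touched by 73.1% in A549. With an overlap of at least 50% of a peak, 46.3% and 70.9% were shared. A minimum fold of 2, primary chromosomes only and strand ignored moved no value beyond these limits.

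No paired analysis was possible because each line has 1 library of each kind. The lists hold no counts, so what depth limits could not be measured.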
